A study of Mus musculus with 4 samples.

Results

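The Ly49+ T cells described here are CD4-negative T cells of a mouse melanoma that carried transcripts of the Ly49 receptor genes *Klra1*, *Klra6* and *Klra7*. They were picked from raw UMI (unique molecular identifier) counts, cell by cell, as cells with at least 2 UMIs summed over *Klra1*, *Klra6* and *Klra7*, at least 3 over *Cd3d*, *Cd3e* and *Cd3g*, none of *Cd4*, *Foxp3* or *Ncr1*, and at most 3 over the macrophage genes *C1qa*, *C1qb* and *Lyz2*. The rule found 559 cells among 2459 non-CD4 T cells, out of 11649 cells that passed the gene number and mitochondrial limits of the study and 14137 cell barcodes in all. Another 155 non-CD4 T cells held a single UMI of these 3 genes, and the 1745 with none served as the comparison, called Ly49- T cells below. Since these 3 genes and the other genes of the rule chose the cells, their values are given as a description and were not tested.

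The cells came from B16-F10 melanoma grown under the skin of wild-type C57BL/6 mice, taken on day 8 after injection. The tumor line was a single clone with a doxycycline-controlled gene for the cytoplasmic green protein ZsGreen (ZsG), and the mice drank doxycycline before harvest, so that a tumor-infiltrating immune cell with ZsG fluorescence had taken up material from tumor cells. The ZsG+ gate of the CD45 sort was set on bright cells, and per the study most lymphocytes with ZsG went to its ZsG- side, so that CD45 ZsG- T cells are not cells without uptake. 2 sorts were sequenced, 1 of all CD45+ cells and 1 of T cells, and each gave 1 ZsG- and 1 ZsG+ library. The labels name the T cell sort CD45+ TCRb+, and the methods of the study name it CD45+ CD3+. Sex, age and the number of mice behind each library are not given in the sources used here, and with 1 library per sort and gate no p-value was computed for ZsG. The 4 libraries held 5437 (CD45 ZsG-), 5168 (CD45 ZsG+), 1136 (T cell ZsG-) and 2396 (T cell ZsG+) barcodes with 47537541, 56510578, 10030971 and 22100220 UMIs. Values below follow this order of libraries. The labels of the T cell sort give its 2 libraries in opposite orders in different places. The library with more barcodes was taken as ZsG+, which fits the order in the description of the matrix and the relative cell numbers shown by the study but not the library names, and all ZsG comparisons in that sort change direction if it was not. Between libraries, 16 cell barcodes were shared, 3 of them with a Ly49+ T cell on either side and 0 with one on both sides.

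Ly49 receptors are lectin-like proteins of the cell surface that bind MHC class I molecules. Most carry an inhibitory ITIM motif, which recruits phosphatases such as SHP-1, and a few are activating and signal through adaptor proteins. They are known mainly from natural killer (NK) cells, and also from small groups of CD8 T cells, among them memory-like cells and regulatory CD8 T cells that express the transcription factor Helios, the product of *Ikzf2*.

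All Ly49 genes of the series lie in 1 cluster on mouse chromosome 6. In the GRCm38 annotation, *Klra1* (Ly49A) spans chr6:130363917-130386874, *Klra6* (Ly49F) chr6:130013033-130026954 and *Klra7* (Ly49G) chr6:130218605-130233322, all on the minus strand. *Ikzf2* spans chr1:69531214-69687245, also on the minus strand. The promoters below are shown because the 3 genes that define the cells and *Klra8* (Ly49H, chr6:130115226-130129898), which was abundant in NK cells and almost missing from the Ly49+ T cells, lie in the same cluster. Each is the 250 bases before a start site of RefSeq on GRCm38.p6, read 5′ to 3′ on the gene's strand, and capitals mark the 6 letters CTTTGA or its reverse complement TCAAAG, the core that TCF-family factors are known to read, and TGTGGT, the core of RUNX-family sites.
Klra1, chr6:130386875-130387124: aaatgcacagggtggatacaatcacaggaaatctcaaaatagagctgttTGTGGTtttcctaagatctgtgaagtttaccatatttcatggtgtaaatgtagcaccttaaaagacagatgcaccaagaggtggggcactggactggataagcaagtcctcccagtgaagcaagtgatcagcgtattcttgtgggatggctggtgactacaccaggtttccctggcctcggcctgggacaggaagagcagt
Klra6, chr6:130026955-130027204: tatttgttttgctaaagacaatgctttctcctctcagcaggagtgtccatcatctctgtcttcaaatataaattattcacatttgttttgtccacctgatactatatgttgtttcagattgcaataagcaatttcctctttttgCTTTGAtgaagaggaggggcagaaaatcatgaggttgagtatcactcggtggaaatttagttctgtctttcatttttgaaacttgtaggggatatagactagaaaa
Klra7, chr6:130231688-130231937: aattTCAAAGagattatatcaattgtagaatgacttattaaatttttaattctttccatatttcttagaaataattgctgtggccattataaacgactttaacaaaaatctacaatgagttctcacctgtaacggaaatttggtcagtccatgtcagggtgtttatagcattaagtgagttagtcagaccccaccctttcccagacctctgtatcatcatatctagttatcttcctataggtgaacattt
Klra7, chr6:130233323-130233572: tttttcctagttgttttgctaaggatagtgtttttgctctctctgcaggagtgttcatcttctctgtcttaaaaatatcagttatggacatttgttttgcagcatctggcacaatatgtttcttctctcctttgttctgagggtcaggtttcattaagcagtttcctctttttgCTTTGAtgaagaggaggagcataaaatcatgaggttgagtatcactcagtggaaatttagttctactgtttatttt
Klra8, chr6:130129899-130130148: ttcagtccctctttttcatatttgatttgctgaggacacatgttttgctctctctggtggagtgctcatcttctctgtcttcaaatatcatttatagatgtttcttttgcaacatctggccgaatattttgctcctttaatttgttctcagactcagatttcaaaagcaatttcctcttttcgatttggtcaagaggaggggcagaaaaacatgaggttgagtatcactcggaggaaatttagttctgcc
On either strand, CTTTGA was found in the *Klra6* promoter and in both *Klra7* promoters and in no other of the 13 Ly49 promoter entries, TGTGGT was found in *Klra1*, and neither was found in *Klra8*. Of 32851 mouse promoters of this length, 13.8% held CTTTGA and 14% held TGTGGT, so a match describes the letters only. The *Klra6* promoter and the second *Klra7* promoter were identical at 67.9% of aligned positions, the second *Klra7* and the *Klra8* promoter shown at 75.2%. Another *Klra8* entry, chr6:130129836-130130085, is not shown and was identical to the second *Klra7* promoter at 48.0%.

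Ly49+ T cells numbered 363, 20, 105 and 71 in the CD45 ZsG-, CD45 ZsG+, T cell ZsG- and T cell ZsG+ libraries. They made up 28.2% of non-CD4 T cells in the CD45 ZsG- library (363 of 1287, 95% exact binomial interval 25.8 to 30.8%), 19.4% in CD45 ZsG+ (20 of 103, 12.3 to 28.4%), 19.5% in T cell ZsG- (105 of 539, 16.2 to 23.1%) and 13.4% in T cell ZsG+ (71 of 530). Such intervals cover counting error only. Classes of cells that should hold few Ly49 transcripts gave the background of the same count. At least 2 UMIs of the 3 genes were found in 7 of 245 macrophages (2.86%) and 7 of 124 CD4+ T cells (5.65%) of the CD45 ZsG- library, in 6 of 3001 macrophages (0.200%) and 0 of 60 CD4+ T cells of CD45 ZsG+, and in 0 of 81 CD4+ T cells of T cell ZsG- and 1 of 145 of T cell ZsG+. In the T cell sort 0 of 81 and 0 of 235 macrophages held as many. NK cells stood above the T cells, with 743 of 1604 (46.3%) in CD45 ZsG- and 35 of 99 (35.4%) in CD45 ZsG+.

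**Figure D1:**
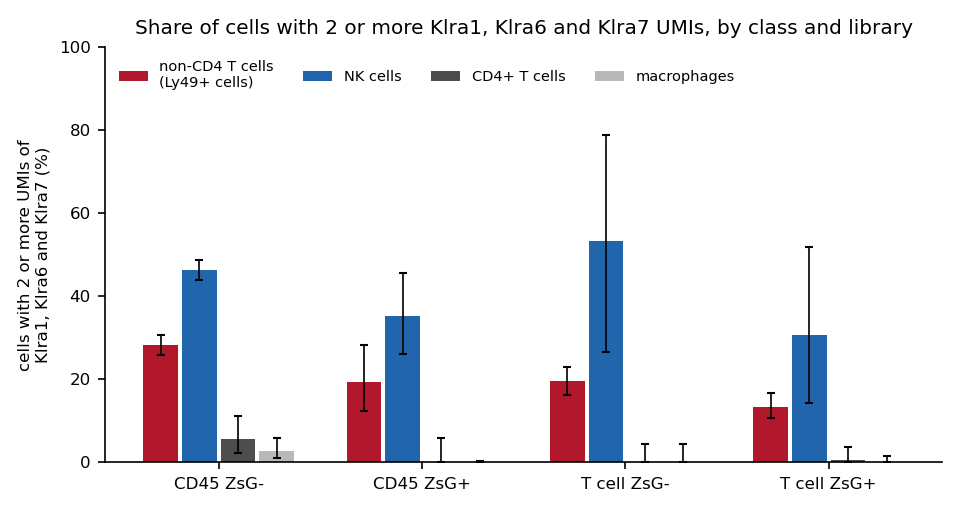
Share of cells (%, y axis) with at least 2 UMIs of Klra1, Klra6 and Klra7 in non-CD4 T cells, NK cells, CD4+ T cells and macrophages of each library, with 95% exact binomial intervals as bars that cover counting error only. The non-CD4 T cells sit between 13.4% and 28.2%, below NK cells and above CD4+ T cells and macrophages in each library.

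In both sorts the share was lower in the ZsG+ library. The log2 ratio of the shares, ZsG+ over ZsG-, was -0.54 in the CD45 sort (95% interval -1.27 to 0.11) and -0.54 in the T cell sort (-1.0 to -0.09), so only the T cell sort was apart by more than counting error. Depth differed between the libraries, and with each cell thinned to 2000 UMIs the share of non-CD4 T cells with any Ly49 UMI was 25.3%, 24.3%, 18.1% and 13.1%. On these thinned counts the log2 ratio was -0.06 (-0.71 to 0.53) in the CD45 sort and -0.47 (-0.94 to -0.00) in the T cell sort. In cells of 3000 to 10000 UMIs the T cell sort gave -0.27 (-0.76 to 0.22).

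Most Ly49+ T cells expressed *Klra7*, and most expressed more than 1 of the 3 genes. A *Klra7* UMI was found in 468 of the 559 cells (83.7%), a *Klra6* UMI in 297 (53.1%) and a *Klra1* UMI in 277 (49.6%). A single gene was detected in 174 cells (31.1%), 2 genes in 287 (51.3%) and all 3 in 98 (17.5%). The share with *Klra7* was alike over the libraries, at 82.4%, 80.0%, 88.6% and 84.5%, while the share with *Klra1* was 48.5%, 65.0%, 41.9% and 62.0%. The median sum of the 3 genes was 5 UMIs and the highest 44.

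As CPM (counts per 1000000, here the UMIs of a gene for each 1000000 UMIs of the class in a library), *Klra7* stood at 447, 588, 563 and 493, *Klra1* at 243, 478, 161 and 270 and *Klra6* at 164, 220, 208 and 196 in Ly49+ T cells. UMIs were counted at the 3′ end and are not scaled by gene length. *Klra3* (Ly49C) stood at 46.6, 73.5, 67.9 and 33.0 CPM and *Klra9* (Ly49I) at 61.9, 73.5, 56.6 and 57.8. Reads of *Klra7*, *Klra3* and *Klra9* may be split with near copies, since 6.57%, 5.15% and 12.4% of 90-base windows in their last 500 bases also occur in another Ly49 gene, against 0% for *Klra1*, *Klra6*, *Klra4* and *Klra8*.

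The Ly49 genes outside the rule were set beside those of NK cells of the same libraries. *Klra4* (Ly49D) and *Klra8* (Ly49H), the activating receptors of the cluster, were among its most abundant genes in NK cells, at 614, 220, 576 and 775 CPM and at 416, 203, 677 and 334 CPM. In Ly49+ T cells *Klra4* stood at 30.9, 0, 1.41 and 0 CPM and *Klra8* at 11.7, 0, 0 and 0 CPM. *Klra6*, a gene of the rule, was at 8.72, 1.22, 45.2 and 0 CPM in NK cells against 164 to 220 CPM in Ly49+ T cells, which were chosen for it.

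Since the T cells were chosen by a Ly49 sum and the NK cells were not, NK cells with at least 2 UMIs of *Klra1*, *Klra6* and *Klra7* were taken as well, a choice made after the data were seen. There were 743, 35, 8 and 8 such cells, with a median sum of 4, 4, 4 and 4.5 UMIs. They held 712, 363, 805 and 750 CPM of *Klra4* and 469, 284, 766 and 276 CPM of *Klra8*, so the T cells were below them in each library. In CD45 ZsG- the log2 ratio of CPM, Ly49+ T cells over these NK cells, was -5.33 for *Klra8* (95% conditional exact interval -5.91 to -4.81) and -4.52 for *Klra4* (-4.87 to -4.20). In the other libraries, where no *Klra8* UMI was found in Ly49+ T cells, its upper limit was -2.62, -7.13 and -4.99, and that of *Klra4* was -2.98 in CD45 ZsG+, -6.60 in T cell ZsG-, which had 1 UMI, and -6.55 in T cell ZsG+. *Klra6* stood at 17.1, 0, 76.6 and 0 CPM in these NK cells.

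**Figure D2:**
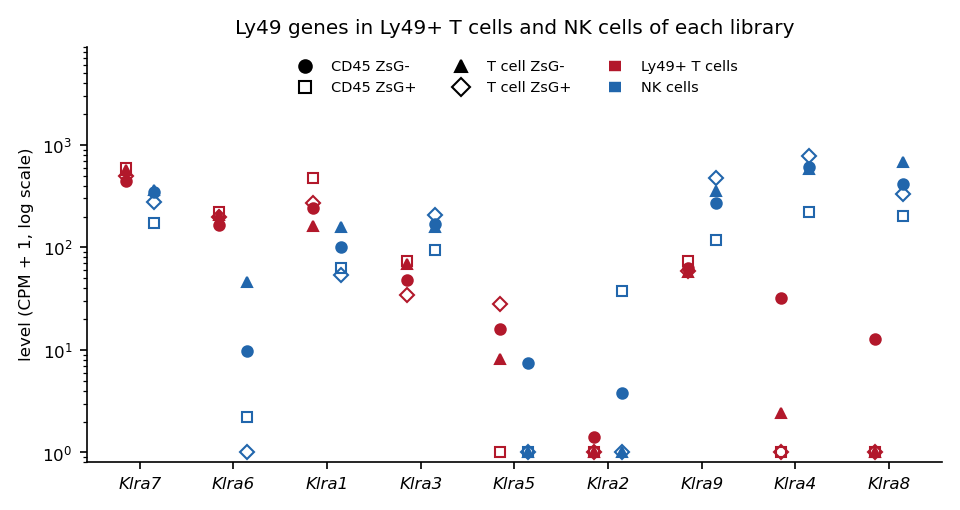
CPM + 1 (log axis) of 9 Ly49 genes in Ly49+ T cells and NK cells, 1 point per library. Klra4 and Klra8 sit at 203 to 775 CPM in NK cells and at 0 to 30.9 CPM in Ly49+ T cells, while Klra6 is at 0 to 45.2 CPM in NK cells and 164 to 220 CPM in Ly49+ T cells.

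The label of these cells as T cells was checked on genes that the rule did not use. *Trac*, the constant part of the T cell receptor α chain, stood at 426, 600, 668 and 599 CPM in Ly49+ T cells and 479, 438, 635 and 648 CPM in Ly49- T cells, against 24.9 CPM in NK cells of CD45 ZsG-. The groups of T cells overlapped, and the difference was 0.07 on the log2 scale and not called. *Trbc2* gave -0.12, also not called. V genes were read as a further check. Of 113 Trbv UMIs in Ly49+ T cells the most went to *Trbv13-2* (13) and *Trbv3* (13, 11.5%), followed by *Trbv12-2* (12, 10.6%) and *Trbv12-1* (11, 9.73%), and of 106 Trav UMIs 17 (16%) went to *Trav16n*. No V gene held a majority. Among Ly49- T cells *Trbv2* led with 57 of 370 Trbv UMIs (15.4%) and *Trav16n* with 66 of 464 Trav UMIs (14.2%). These ranks are pooled over libraries whose shares differed. In Ly49- T cells of T cell ZsG+ *Trbv12-2* (12.2%) stood above *Trbv2* (8.16%) and *Trav16* (18.9%) above *Trav16n* (6.60%). In Ly49+ T cells *Trbv3* held 15.7% in CD45 ZsG- and 0% in T cell ZsG-.

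The marker *Ikzf2*, which was not used by the rule, stood out. It was at 1024, 1507, 1341 and 1109 CPM in Ly49+ T cells and at 146, 133, 163 and 105 CPM in Ly49- T cells. The log2 difference was 3.20 (SE 0.15, adjusted p = 1.4e-14, edgeR quasi-likelihood test with library as a block). NK cells held 102, 35.2, 158 and 91.2 CPM. At 2000 UMIs a cell, an *Ikzf2* UMI was found in 74.7% of Ly49+ T cells of CD45 ZsG-, against 26.7% of Ly49- T cells, 13.5% of NK cells, 43.5% of CD4+ T cells and 1.22% of macrophages. Without thinning the shares were 89.5% and 52.1% in Ly49+ and Ly49- T cells.

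Around the threshold of the rule, *Ikzf2* was higher in each library with more Ly49 UMIs. In T cell ZsG- it stood at 163 CPM in cells with none, 880 with 1, 1326 with 2 and 1343 with 3 or more, and in CD45 ZsG- at 146, 414, 990 and 1033 CPM. For *Ikzf2* the 155 cells just outside the threshold were thus between the groups, and the 94 cells with 2 UMIs were close to those with more. For *Cd8b1* the cells with 2 UMIs were also between, at 224 CPM in CD45 ZsG- and 207 CPM in T cell ZsG+, against 91.8 and 46.9 CPM with 3 or more and 477 and 648 CPM with none. *Cd8a* was at 182 CPM with 2 and 96.4 CPM with 3 or more in CD45 ZsG-, and at 207 and 157 CPM in T cell ZsG+. It ran the other way in T cell ZsG- (65.0 and 149 CPM) and in CD45 ZsG+ (0 and 94.0 CPM). *Pdcd1* was at 117 and 22.2 CPM in T cell ZsG-, where 11 cells had 2 UMIs. *Fcer1g* went from 35.2 through 142 and 339 to 515 CPM in CD45 ZsG- and from 48.5 through 397 and 455 to 459 CPM in T cell ZsG-. In CD45 ZsG+, with 7 cells of 1 UMI and 2 cells of 2 UMIs, it stood at 95.4, 713, 974 and 698 CPM and did not follow the number of UMIs, and in T cell ZsG+ at 72.1, 230, 432 and 621 CPM. These values describe the threshold and were not tested.

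Of 9021 genes tested over the 4 libraries, 922 were higher (10.2%) and 1121 lower (12.4%) in Ly49+ than in Ly49- T cells at an adjusted p under 0.05. Of the called genes with one direction in every library and at least 50 CPM in the higher class, the 12 with the largest differences each way are given first. The higher genes were *Rbpms*, *Klrb1c*, *Fcer1g*, *Ikzf2*, *Atp1b1*, *Cd7*, *Pde2a*, *Tcrg-C2*, *Klhdc2*, *Nsg2*, *Zbtb20* and *Irs2*. The lower genes were *Ccl3*, *Ifng*, *Havcr2*, *Tnfrsf4*, *Ccl1*, *Zbtb32*, *Mt1*, *Lag3*, *Nrgn*, *Prf1*, *Cd8b1* and *Rgs16*.

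*Fcer1g*, the signalling chain shared by Fc receptors and NK receptors, stood at 477, 723, 458 and 599 CPM in Ly49+ T cells and 35.2, 95.4, 48.5 and 72.1 CPM in Ly49- T cells, a log2 difference of 3.31 (SE 0.17, edgeR adjusted p = 9.6e-14). *Klrb1c*, which encodes NK1.1, stood at 93.6, 61.2, 49.5 and 39.2 CPM against 7.57, 2.75, 5.24 and 4.48 CPM (log2 difference 3.54, SE 0.25). *Cd7*, a surface protein of T and NK cells, was at 262, 171, 245 and 316 CPM against 25.2, 8.26, 59.9 and 30.8 CPM (3.11, SE 0.22). The named genes had to have one direction in every library, so the gap between the classes is in part set by that choice. *Fcer1g* is also abundant in macrophages and NK cells, which share the tissue, so its share of cells was set beside theirs. Thinned to 2000 UMIs in CD45 ZsG-, 52.1% of Ly49+ T cells, 10.1% of Ly49- T cells, 96.6% of NK cells and 99.6% of macrophages held a *Fcer1g* UMI.

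*Rbpms*, an RNA-binding protein, was at 58.7, 61.2, 46.7 and 45.4 CPM in Ly49+ T cells and 4.61, 0, 2.95 and 1.49 CPM in Ly49- T cells. It had the largest log2 difference of the named higher genes (4.15, SE 0.31, edgeR adjusted p = 1.5e-10). *Atp1b1*, a subunit of the sodium-potassium pump, was at 64.3, 98.0, 53.7 and 78.5 CPM against 6.09, 2.75, 10.5 and 11.7 CPM (3.12, SE 0.25). *Tcrg-C2*, a constant gene of the T cell receptor γ chain, was at 44.2, 36.7, 50.9 and 82.6 CPM against 8.43, 2.75, 9.82 and 5.47 CPM (2.89, SE 0.27). These genes too were named for one direction in every library. *Pde2a*, a phosphodiesterase, *Klhdc2*, a ubiquitin ligase subunit, *Nsg2*, *Zbtb20*, a transcriptional repressor, and *Irs2*, an adaptor of the insulin receptor, completed the higher group with log2 differences of 3.06, 2.63, 2.61, 2.51 and 2.43.

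Among the lower genes, *Ifng*, which encodes interferon γ, stood at 30.9, 36.7, 17.0 and 57.8 CPM in Ly49+ T cells and 628, 460, 963 and 3485 CPM in Ly49- T cells, a log2 difference of -5.07 (SE 0.24, edgeR adjusted p = 1.4e-14). The chemokine gene *Ccl3* was at 18.1, 294, 2.83 and 16.5 CPM against 767, 618, 711 and 2277 CPM (-5.12, SE 0.47). The high value of CD45 ZsG+ came from 1 cell, which held 24 of 24 *Ccl3* UMIs and 136 of 138 *Ccl4* UMIs of its Ly49+ T cells. *Havcr2* (TIM-3) was at 9.24, 0, 0 and 4.13 CPM against 101, 93.6, 58.6 and 78.4 CPM (-3.83, SE 0.32) and *Lag3* at 16.1, 0, 0 and 14.5 CPM against 102, 89.0, 69.4 and 147 CPM (-3.15). *Prf1*, which encodes perforin, was at 93.6, 12.2, 15.6 and 35.1 CPM against 478, 474, 221 and 317 CPM (-2.95). All of these were lower in Ly49+ T cells in each library, which the choice of named genes asked for. *Tnfrsf4* (OX40), *Ccl1*, *Zbtb32*, *Mt1*, a metallothionein, *Nrgn* and *Rgs16* gave -3.61, -3.54, -3.34, -3.20, -3.00 and -2.85.

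**Figure D3:**
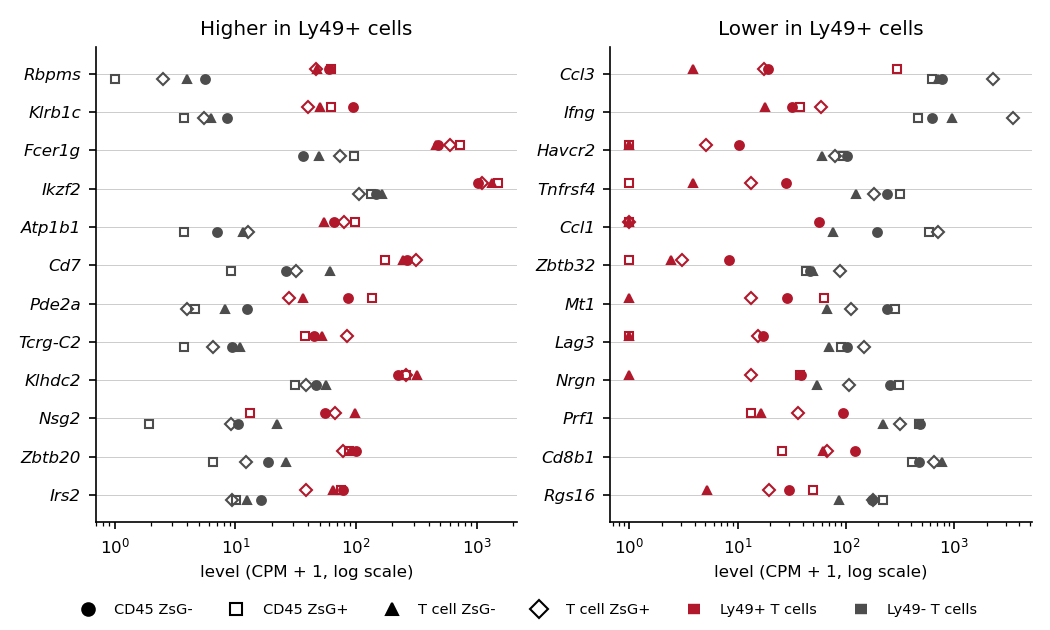
CPM + 1 (log axis) of the 12 named genes higher and the 12 lower in Ly49+ T cells, 1 point per library for Ly49+ and for Ly49- T cells. Fcer1g, Ikzf2 and Rbpms are apart in all 4 libraries, and Ccl3 shows the single raised Ly49+ library, at 294 CPM, that came from 1 cell.

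These calls rest on 4 libraries, which are not replicates of 1 condition, so the p-values measure the spread between these libraries only. The number of calls dropped to 648 (8.81% of the genes tested) without the CD45 ZsG- library and to 603 (7.83%) in cells of 3000 to 10000 UMIs. Among cells without a UMI of *Pdcd1*, *Havcr2*, *Mki67* or *Top2a* (a setting added after the data were seen) it was 286 (4.24%). There, 432 of the 1617 called genes that could still be tested had the other sign, against 230 of 1764 in the UMI range. Depth differed between the classes, with a median of 5534, 3538, 5818 and 5707 UMIs in Ly49+ and 9226, 12432, 5914 and 6517 UMIs in Ly49- T cells, and the median mitochondrial share was 5.30%, 5.77%, 5.04% and 5.10% against 4.65%, 4.21%, 4.27% and 4.10%. The part of depth and RNA quality in each difference was not tested beyond those settings.

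The sizes of the named differences moved with the same settings. Each kept its direction where it could be tested, which in part follows from how these genes were chosen. In cells of 3000 to 10000 UMIs and in cells without a UMI of those 4 genes (cells without activation genes), the log2 difference of *Ifng* was -2.04 and -2.07 and that of *Ccl3* -2.87 and -2.10. On the same pair of settings *Prf1* gave -1.69 and -1.17. *Rbpms* was at 2.54 and 2.21, *Klrb1c* at 2.04 and 1.85 and *Cd7* at 1.93 and 1.58. *Tcrg-C2* (1.38 and 0.92), *Pde2a* (1.23 and 0.92), *Nsg2* (1.19 and 0.69), *Zbtb20* (1.34 and 0.94) and *Irs2* (1.20 and 0.89) gave the smallest values among the named higher genes and were still called. *Atp1b1* (1.79) and *Lag3* (-1.78) were smaller in cells without activation genes, and *Zbtb32* was larger in the UMI range (-5.27). *Ikzf2* (2.47 and 2.27) and *Fcer1g* (3.01 and 2.52) moved less. *Nrgn* was not called in the UMI range (-0.73, edgeR adjusted p = 0.35) and *Mt1* not in cells without activation genes (-0.99, edgeR adjusted p = 0.19). *Ccl1* was at 0 CPM in Ly49+ T cells of 3 of 4 libraries, so its fitted value is no bound, and it gave -2.20 in the CD45 sort alone.

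Gene lists were read by their counts, beside the 10.2% and 12.4% of all genes called in each direction and a median over all genes of -0.00. Of 9 tested NK markers outside the Ly49 family, 7 were higher, 0 lower and 2 not called, with a median log2 difference of 1.81. *Tyrobp* (DAP12), the adaptor of activating Ly49 receptors, stood at 217, 282, 63.6 and 80.5 CPM against 32.4, 62.4, 20.6 and 69.4 CPM in Ly49- T cells (1.81). *Klre1* stood at 215, 147, 122 and 114 CPM against 88.6, 56.9, 39.9 and 34.3 CPM (1.54). *Tyrobp* was nearly alike in T cell ZsG+, while *Klre1* was apart in each library. *Txk*, a kinase of the Tec family, gave 1.45. *Eomes*, the transcription factor of NK and memory CD8 cells, gave -0.13 and was not called.

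Over their whole list, the NK markers summed to 1464, 1531, 1073 and 1177 CPM in Ly49+ T cells, 291, 304, 358 and 340 CPM in Ly49- T cells and 8592, 7462, 9281 and 10753 CPM in NK cells. Of the 15 markers 14, 7, 11 and 10 were detected in Ly49+ T cells, and *Fcer1g* was the most abundant. *Ncr1* was at 0 by the rule, and *Klra8* was at 0 in 3 of the 4 libraries. When only cells with no UMI of *Tyrobp*, *Klre1* or *Klrb1c* were kept in both classes, which left the CD45 ZsG+ library with under 10 Ly49+ T cells and out of the fit, 1038 genes were called in place of 2043, 954 of them also called before, and 2 of 5 NK markers still tested were higher.

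Among the NKG2 and NKR-P1 receptors, mostly lectin-like receptors that NK and memory CD8 cells share, 8 of 12 were higher and 2 lower (median 0.72). *Klrd1* (CD94) was at 777, 649, 696 and 692 CPM against 408, 279, 422 and 392 CPM (0.94), and *Klrb1a* at 12.9, 49.0, 8.49 and 24.8 CPM against 0.312, 0, 0.327 and 0.249 CPM (5.70). *Klrk1* (NKG2D) and *Klrc2* were higher by 0.52 and 0.61, as was *Cd160*, an immunoglobulin-type receptor kept in this list (0.84), whereas the inhibitory receptor *Klrc1* (NKG2A) and *Klrg1*, a marker of effector cells, were lower, at -1.19 and -2.19. The direction thus split within the list, and with *Tyrobp*, *Klre1* and *Klrb1c* at 0 in both classes 2 of 9 were higher and 3 lower (median 0.11).

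Of 16 genes of the T cell receptor complex and its early signalling, 1 was higher, 6 lower and 9 not called (median -0.26). *Cd5*, which damps T cell receptor signals and follows their strength, was at 55.4, 12.2, 48.1 and 20.6 CPM against 139, 134, 97.6 and 99.3 CPM (-1.44). *Themis*, needed for T cell development, was at 28.9, 24.5, 21.2 and 18.6 CPM against 90.8, 81.7, 104 and 108 CPM (-1.93). Both were lower in each library. *Cd6* (-1.40), *Lat* (-1.22), *Ubash3a* (-0.89) and *Cd28* (-0.52) were the other lower members.

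Both CD8 genes were lower. *Cd8a* stood at 115, 85.7, 140 and 163 CPM in Ly49+ T cells and 339, 315, 444 and 543 CPM in Ly49- T cells (-1.61), and *Cd8b1* at 121, 24.5, 60.8 and 66.1 CPM against 477, 406, 779 and 648 CPM (-2.88, SE 0.23, edgeR adjusted p = 4.5e-10). A *Cd8a* UMI was found in 31.1%, 35.0% and 46.7% of Ly49+ T cells of the first 3 libraries against 72.9%, 72.4% and 75.3% of Ly49- T cells. At 2000 UMIs a cell the shares in CD45 ZsG- were 13.8% and 41.8%, with 0.375% in NK cells and 0.408% in macrophages.

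*Cd8b1* was also low beside *Cd8a*. Over all cells of each class, *Cd8b1* UMIs per *Cd8a* UMI were 1.05, 0.286, 0.434 and 0.405 in Ly49+ T cells and 1.41, 1.29, 1.75 and 1.19 in Ly49- T cells. The log2 ratio of these was -0.42 (95% conditional exact interval -0.60 to -0.26), -2.17 (-5.22 to -0.31), -2.01 (-2.48 to -1.58) and -1.56 (-2.11 to -1.06), so each library was apart by more than counting error, with 2 *Cd8b1* UMIs behind the Ly49+ value of CD45 ZsG+. At 2000 UMIs a cell, a *Cd8b1* UMI was found in 9.92%, 10%, 11.4% and 4.23% of Ly49+ T cells and in 51.4%, 65.8%, 67.2% and 66.2% of Ly49- T cells. The CD8 αα form, which lacks the β chain, is known from intraepithelial lymphocytes and from γδ T cells.

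Of 6 genes of γδ and innate-like T cells, 3 were higher and 0 lower (median 1.76), and all 3 belong to the γ locus: *Tcrg-C2* (2.89), *Tcrg-C4* (2.43) and *Trgv2* (2.65). In cells of 3000 to 10000 UMIs the list turned, with 2 higher and 3 lower (median -0.26), and among cells without a UMI of *Pdcd1*, *Havcr2*, *Mki67* or *Top2a* it gave 1 higher and 2 lower (-0.56). *Trdc*, the δ constant gene, was not called. *Trdv4*, *Sox13*, *Blk* and *Il17a*, which mark γδ T cells and their IL-17 branch, were at 0 in the Ly49+ T cells of all 4 libraries. Ly49- T cells were also at 0 for all of these in CD45 ZsG+ and T cell ZsG-, and for all but *Il17a* in T cell ZsG+. In CD45 ZsG- the Ly49- T cells held each of them. A *Tcrg-C2* UMI was found in 69 of 363, 2 of 20, 26 of 105 and 27 of 71 Ly49+ T cells, and *Trgv2* in 41, 0, 19 and 12 of them. The T cell libraries came from a sort named TCRb+ in the labels and CD3+ in the methods of the study. γ genes can also be transcribed in αβ T cells, and which receptor these cells carried was not tested. When the comparison was limited to cells with a *Trac* UMI and no γ or δ chain UMI (added after the data were seen), 1638 genes were called, 1516 of them also called before.

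Among 18 genes linked to regulatory or virtual memory CD8 T cells, 6 were higher and 5 lower (median -0.13). *Il2rb*, the shared β chain of the IL-2 and IL-15 receptors, was at 534, 478, 629 and 510 CPM against 377, 359, 279 and 266 CPM (0.82), *Ly6c2* at 1549, 1482, 2659 and 2281 CPM against 612, 581, 1347 and 1165 CPM (1.18) and *Bcl2*, which protects against cell death, at 336, 306, 482 and 378 CPM against 65.9, 31.2, 175 and 78.4 CPM (2.24). Each was higher in each library, although *Il2rb* was not called in the CD45 sort alone (0.46, edgeR adjusted p = 0.14). *Nt5e* (CD73) and *Cxcr3* were higher by 1.95 and 0.79. *Tox*, the transcription factor of exhausted T cells, and *Tgfb1* were lower, at -1.24 and -0.65.

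Of 14 genes of naïve and central memory T cells, 12 were higher and 1 lower (median 1.39). *Tcf7*, which encodes TCF-1, was at 248, 343, 225 and 213 CPM against 52.6, 32.1, 123 and 57.7 CPM (1.97), higher in each library. *S1pr1*, *Il7r*, *Satb1*, *Bach2*, *Lef1* and *Klf2* were higher by 1.54, 1.48, 1.53, 1.39, 1.38 and 0.88, *Dapl1* was lower (-1.56) and *Ccr7* gave -0.45 and was not called. The list did not keep its direction when activated cells were set aside: in cells without a UMI of *Pdcd1*, *Havcr2*, *Mki67* or *Top2a* 0 were higher and 3 lower (median -0.03), with *Tcf7* at 0.21 (edgeR adjusted p = 0.58), and in cells of 3000 to 10000 UMIs 4 were higher and 2 lower (0.27).

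Of 17 exhaustion genes, 14 were lower and 1 higher (median -2.19). *Pdcd1*, which encodes PD-1, was at 69.9, 61.2, 32.5 and 47.5 CPM in Ly49+ T cells against 299, 254, 194 and 224 CPM (-2.19). *Ctla4*, *Cd200*, *Entpd1* and *Tnfrsf9* gave -2.48, -2.95, -2.33 and -1.62, and *Cd101* was the higher member (1.27). At 2000 UMIs a cell a *Pdcd1* UMI was found in 5.51% of Ly49+ and 34.8% of Ly49- T cells of CD45 ZsG- and in 5.71% and 20.2% of T cell ZsG-, with 1.22% in macrophages of CD45 ZsG-. Unthinned, the CD45 ZsG- shares were 13.8% and 61.5%. In cells of 3000 to 10000 UMIs 11 of 17 were lower and 1 higher (-1.69), and in cells without a UMI of *Pdcd1*, *Havcr2*, *Mki67* or *Top2a* 6 of 13 were lower and 1 higher (-0.61), a setting whose rule uses 2 members of this list.

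Cytotoxic genes went the same way, with 11 of 18 lower and 1 higher (median -0.83). In cells with a *Cd8a* UMI 10 of 18 were lower and 1 higher (-0.85). In cells without one 3 of 15 were lower and 2 higher (-0.27). *Gzmb* (granzyme B) was at 423, 220, 332 and 386 CPM against 1823, 1867, 1695 and 1840 CPM (-2.32), apart in each library. *Gzmk* (-2.67), *Gzmf* (-5.56), *Cx3cr1* (-3.27), *Id2* (-1.50) and *Nkg7* (-0.51) were lower. *Ctsw*, a cathepsin of NK and CD8 cells, was higher (0.82), and *Gzma* (-0.54) and *Ccl5* were not called. Relative to class totals, *Gzma* was higher in Ly49+ T cells of both CD45 libraries and lower in those of both T cell libraries. In CD45 ZsG- 363 Ly49+ T cells held 1104 *Gzma* UMIs, against 1196 in 598 Ly49- T cells with *Cd8a* and 274 in 222 without. In T cell ZsG- 105 Ly49+ T cells held 73, against 2465 in 311 and 167 in 102. Of 14 cytokine genes 8 were lower and 0 higher (median -2.22), among them *Csf2* (-4.55), *Areg* (-5.63) and *Ccl4*, which stood at 76.7, 1690, 22.6 and 86.7 CPM against 1076, 896, 1690 and 3480 CPM (-3.63). *Ccl4* was above the Ly49- T cells in CD45 ZsG+, the library where 1 cell held nearly all its UMIs.

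Cytokine receptors split, with 8 of 16 higher and 2 lower (median 0.39). *Ifngr1*, a chain of the interferon γ receptor, was at 1070, 1249, 1066 and 826 CPM against 333, 223, 638 and 357 CPM (1.52), and *Il4ra* and *Il12rb2* were higher by 1.60 and 0.96, while *Il2ra* (CD25, -2.53) and *Il10ra* (-1.54) were lower. Of 17 genes of tissue residence and trafficking, 7 were higher and 4 lower (median 0.19). *Cxcr4* (1.75), *Itga1* (1.41), *Rgs2* (1.32), *Itgb7* (1.03) and *Cd69* (0.77) were higher, and *Cxcr6*, a receptor of resident T cells, was at 51.0, 85.7, 45.3 and 39.2 CPM against 226, 168, 198 and 227 CPM (-2.06). The residence list turned to 2 higher and 7 lower (-0.33) in cells of 3000 to 10000 UMIs, to 2 and 5 (-0.22) in cells without activation genes and to 5 and 7 (-0.24) in the T cell sort alone, and gave 5 and 4 (-0.07) without CD45 ZsG-. The cytokine receptors gave 4 higher and 3 lower (0.05) in that UMI range and 4 and 2 of 14 (0.10) in cells without activation genes.

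Of 21 transcription factors, 4 were higher, 7 lower and 10 not called (median -0.13). *Id3* (2.11) and *Zeb1* (1.05) were higher, *Irf4* (-2.32), *Irf8* (-1.42), *Batf* (-1.29), *Zeb2* (-0.88) and *Bcl11b* (-0.57) lower, and *Tbx21*, *Runx3* and *Ikzf1* were not called. Downstream of ITIM receptors, 3 of 11 genes were higher, 3 lower and 5 not called (median -0.14). *Ptpn6*, which encodes SHP-1, was at 86.4, 159, 126 and 116 CPM against 111, 128, 121 and 141 CPM (-0.09, not called), with overlapping values. *Inpp5d* (SHIP-1) was higher by 0.68 and *Ptpn11* (SHP-2) lower, at -0.85, and in cells of 3000 to 10000 UMIs 0 of the 11 were higher and 3 lower.

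Interferon-stimulated genes were mostly higher, 10 of 16 with 1 lower (median 0.62), led by *Oasl2* (1.68) and *Irf7* (1.14), while *Ly6a* (Sca-1) was at 178, 110, 91.9 and 192 CPM against 532, 618, 737 and 778 CPM (-2.14). In cells of 3000 to 10000 UMIs the same list gave 0 higher and 5 lower (median -0.21), without CD45 ZsG- it gave 3 higher and 1 lower (0.22), and in cells without *Pdcd1*, *Havcr2*, *Mki67* or *Top2a* UMIs 0 higher and 5 lower (-0.27). Of 14 MHC class I genes, the ligands of Ly49 receptors and their loading machinery, 2 were higher (*H2-Q4*, 0.84, and *H2-Q6*, 0.72), 1 lower (*Psmb9*, -0.49) and 11 not called, among them *H2-K1*, *H2-D1* and *B2m*, while in cells of 3000 to 10000 UMIs 0 were higher and 3 lower (median -0.18, against 0.11 over all depths). All 17 cell cycle genes tested were lower (median -1.46), with *Mki67* at 69.5, 49.0, 41.0 and 39.2 CPM against 231, 426, 60.3 and 99.3 CPM (-1.46). Of the cell cycle list 9 of 17 were lower without CD45 ZsG-, 10 of 17 in the T cell sort alone, 10 of 15 in cells of 3000 to 10000 UMIs (-1.06) and 1 of 10 in cells without *Pdcd1*, *Havcr2*, *Mki67* or *Top2a* UMIs (-0.08), a setting that removes cycling cells by its rule. In T cell ZsG- all 29 *Mki67* UMIs of Ly49+ T cells lay in 1 cell. Immediate early and heat shock genes, read as 1 list, gave 4 higher, 3 lower and 9 not called (median 0.05).

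**Figure D4:**
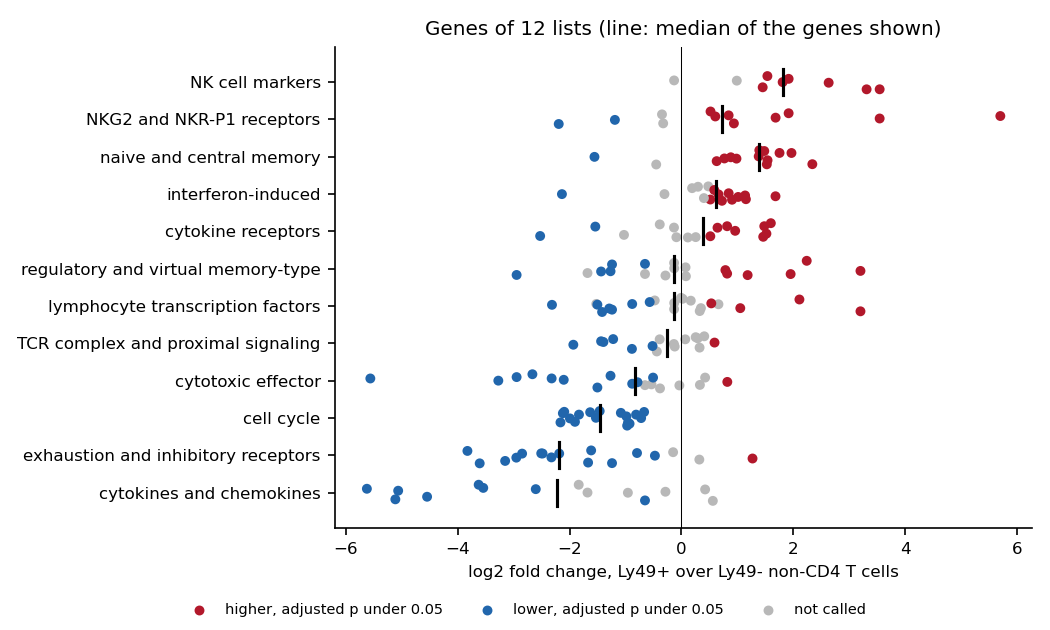
Log2 difference between Ly49+ and Ly49- T cells (x axis) for each tested gene of 12 lists, with the median as a line and points coloured by the call (red higher, blue lower, grey not called). The exhaustion list sits at a median of -2.19 and the naïve and central memory list at 1.39, before depth or activation were matched.

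Markers of other cells were read beside these lists. Of 11 macrophage markers 0 were called by edgeR (median -0.01), with sums of 428, 1690, 339 and 279 CPM in Ly49+ T cells and 359, 1268, 404 and 428 CPM in Ly49- T cells. *Cst3* was the most abundant, and *Adgre1* and *Vcan* were at 0 in Ly49+ T cells of all 4 libraries. B cell markers summed to 118, 85.7, 139 and 122 CPM against 56.0, 41.3, 77.0 and 64.7 CPM, nearly all *Ighm*, with *Ms4a1* at 0, and both members tested were higher (median 1.17). The list of plasmacytoid dendritic cells summed to 315, 233, 519 and 469 CPM against 198, 168, 398 and 434 CPM, led by *Bst2*, and 1 of 4 was higher. Markers of CD4 and regulatory T cells summed to 149, 147, 56.6 and 103 CPM against 666, 812, 509 and 684 CPM, and 5 of 7 were lower (median -2.48). Melanocyte markers summed to 0, 0, 4.24 and 10.3 CPM against 0.39, 3.67, 3.60 and 11.2 CPM and were too low to test. The part of these cells in the differences was not tested.

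The Ly49+ T cells were then split by *Cd8a*, with 113, 7, 49 and 29 cells that held a *Cd8a* UMI, and each side was set against Ly49- T cells of the same kind. The split is in part a split by depth, since the median was 6592, 4131, 7187 and 6496 UMIs in Ly49+ T cells with *Cd8a* and 5094, 3324, 5502 and 4972 without. The CD45 ZsG+ library, with 7 such cells, was left out of the fit with *Cd8a* and of both fits below that need them, since a library had to hold at least 10 Ly49+ T cells of the kind compared. With *Cd8a*, 428 of 8612 genes were higher (4.97%) and 323 lower (3.75%). Without *Cd8a*, 82 of 4657 were higher (1.76%) and 140 lower (3.01%), together 4.77%. The numbers of cells and libraries differed between the fits, so the numbers of calls do not compare the sizes of the differences.

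In cells with *Cd8a* the named genes were much the same as before: *Tcrg-C2* (3.67), *Fcer1g* (3.41), *Ikzf2* (3.32), *Cd7* (3.18), *Nsg2* (2.91) and *Irs2* (2.87) were higher, and *Ccl3* (-5.65), *Ifng* (-4.47), *Ccl4* (-3.96), *Gzmc* (-3.87), *Havcr2* (-2.82) and *Tnfrsf4* (-2.61) lower. Naïve and central memory genes gave 9 higher and 1 lower of 14 (median 1.31), exhaustion genes 0 higher and 12 lower of 17 (-1.69), cytotoxic genes 1 higher and 10 lower of 18 (-0.85), cell cycle genes 0 higher and 8 lower of 17 (-0.72) and interferon genes 7 higher and 1 lower of 16 (0.83). Among cells without a UMI of *Pdcd1*, *Havcr2*, *Mki67* or *Top2a*, *Nsg2* and *Ifng* were no longer called. There 101 genes (1.76% of those tested) were called in place of 751 (8.72%).

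In cells without *Cd8a*, *Fcer1g* (2.18), *Klhdc2* (2.05), *Spry2*, an inhibitor of growth factor signals (1.89), *Atp1b1* (1.85), *Cd160* (1.74) and *Rbpms* (1.68) were higher, and *Ccl4* (-4.94), *Tnfrsf4* (-4.64), *Igkc* (-4.54), *Ccl3* (-4.49), *Ifng* (-3.97) and the heat shock gene *Hspa1a* (-3.55) lower. The cytokine values leaned on 1 cell: among Ly49- T cells without *Cd8a* of T cell ZsG-, a single cell held 1690 of 2231 *Ccl4*, 823 of 850 *Ccl3* and 1162 of 1219 *Ifng* UMIs, and *Ifng* was not called without that library (-1.28, edgeR adjusted p = 0.091) or by DESeq2 on all libraries (-2.89, adjusted p = 0.41). Of 6 markers of CD4 and regulatory T cells, *Tnfrsf4* among them, 5 were lower and 0 higher (median -3.04), and of 8 macrophage markers 3 were lower and 0 higher (-0.59). Their part in these differences was not tested. Naïve and central memory genes gave 2 higher and 3 lower of 14 (median 0.04), exhaustion genes 0 and 4 of 10 (-0.52) and cytotoxic genes 2 and 3 of 15 (-0.27). Cell cycle genes gave 0 and 1 of 12 (-0.04) and interferon genes 0 and 7 of 16 (-0.50). For γδ and innate-like genes it was 0 and 3 of 6 (-1.24), and for NKG2 and NKR-P1 genes 4 and 0 of 8 (0.80).

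The difference between both sides was tested as an interaction term over 7320 genes in the 3 libraries kept. With minus without *Cd8a*, it was above 0 for 12 genes (0.164%) and below 0 for 1 (0.0137%), *Gzmc*. *Gzmc* (granzyme C) stood at 19.4, 0, 2.56 and 24.7 CPM in Ly49+ and 426, 515, 90.9 and 70.8 CPM in Ly49- T cells with *Cd8a*. Without *Cd8a* the order was the opposite in 3 libraries, at 62.5, 0, 72.5 and 78.7 CPM in Ly49+ and 23.7, 10.5, 12 and 11.5 CPM in Ly49- T cells. The interaction was -5.80 on the log2 scale (edgeR adjusted p = 0.0029), but few cells carried it, since 31 of 250, 5 of 56 and 4 of 42 Ly49+ cells without *Cd8a* held a *Gzmc* UMI in CD45 ZsG-, T cell ZsG- and T cell ZsG+, and 1 cell of each library held 44 of 91, 16 of 23 and 11 of 19 of the UMIs. In cells of 3000 to 10000 UMIs it was -3.99 (adjusted p = 0.14), and in cells without a UMI of *Pdcd1*, *Havcr2*, *Mki67* or *Top2a* -2.57 (adjusted p = 0.57).

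*Ikzf2* was higher in Ly49+ T cells on both sides. With *Cd8a* it stood at 763, 2006, 1336 and 922 CPM against 111, 99.6, 118 and 82.0 CPM, and without at 1209, 1095, 1347 and 1296 CPM against 501, 481, 393 and 344 CPM. Ly49- T cells without *Cd8a* held more *Ikzf2* than those with it in each library, and the interaction was 1.67 (edgeR adjusted p = 0.0038). Without the T cell ZsG+ library it was 1.72 with an adjusted p of 0.18, and in cells with *Trac* and no γ or δ chain UMI 1.69 with an adjusted p of 0.22. The γ locus genes *Trgv2* (4.09), *Tcrg-C4* (4.22) and *Tcrg-C2* (3.27), *Rbpms* (3.09), *Pde2a* (3.14) and *Irs2* (2.50) were further genes of this group. The number of genes called was 1 without T cell ZsG+, 2 without CD45 ZsG- and 95 without T cell ZsG-.

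**Figure D5:**
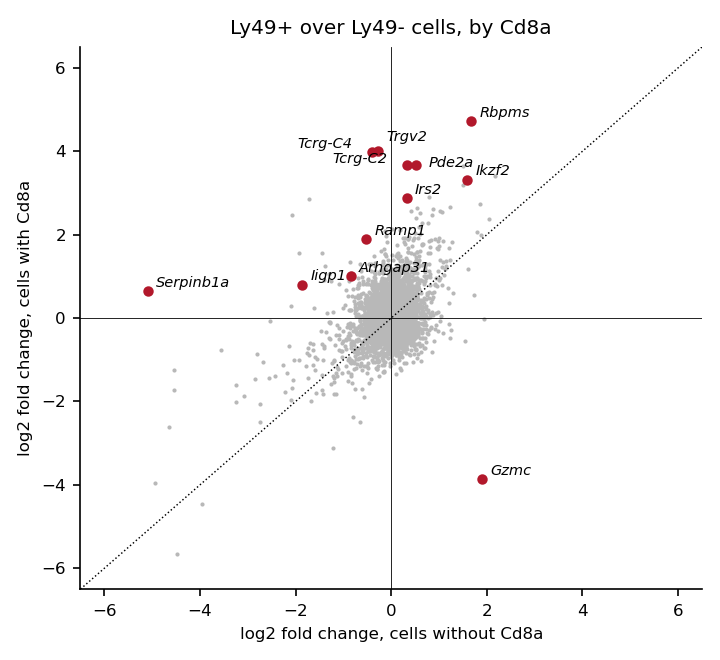
Log2 difference between Ly49+ and Ly49- T cells without Cd8a (x axis) and with Cd8a (y axis) for 4647 genes tested on both sides, with labelled red points for genes whose interaction was called and a dotted line of equality. Ikzf2 lies above the line at 3.32 with Cd8a, and Gzmc lies below it at -3.87 with Cd8a.

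Within the Ly49+ T cells, those with and without *Cd8a* were compared directly in the same 3 libraries. Of 4491 genes 78 were higher with *Cd8a* (1.74%) and 32 lower (0.713%), together 2.45%. *Cd8b1* (3.13), the histone genes *Hist1h1b* (2.51) and *Hist1h2ae* (2.25), *Ccl4* (2.49), *Pclaf* (2.10) and *Birc5*, which acts in cell division (1.99), were higher, and *Gzmc* (-2.07), *Rbpms* (-0.98), *Gm20186* (-0.92), *Il7r* (-0.90), *Fasl* (-0.84) and *Adk* (-0.84) lower. Of 16 cell cycle genes 10 were higher and 0 lower (median 1.39). Few cells carried them: a *Mki67* UMI was found in 12 of 113, 1 of 49 and 3 of 29 Ly49+ T cells with *Cd8a* and in 11 of 250, 0 of 56 and 1 of 42 without, in CD45 ZsG-, T cell ZsG- and T cell ZsG+. Without the CD45 ZsG- library, which held 363 of the 559 cells, 0 genes were called by edgeR (316 at an unadjusted p under 0.05). DESeq2 on the same 3 libraries called 22, and gave an adjusted p to 1967 genes only.

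Between ZsG gates the Ly49+ T cells were compared by ratios of pooled CPM within each sort, with no test. In the CD45 sort, where the ZsG+ side had 20 cells, 368 of 3645 genes were at least 2-fold higher with ZsG (10.1%) and 293 at least 2-fold lower (8.04%). A gene could be named if at least 20% of the Ly49+ T cells of 1 library held a UMI, and each gene named here or in the T cell sort passed only through the library where it was higher, so that the ratios are in part set by this limit. They are given as a description, and since Ly49- T cells were not chosen this way, the gap to their values shows no difference between the classes. The genes named as higher are known from macrophages and other myeloid cells. *Apoe* was higher by 6.51 on the log2 scale (95% exact interval 4.79 to 8.60), with a UMI in 9 of 20 ZsG+ and 4 of 363 ZsG- cells, *Ccl12* by 6.74 (4.34 to 10.04), *Ccl8* by 6.31 (4.73 to 8.15) and *Clec4a2* by 6.25 (3.64 to 9.64), and *C1qc* had 8 UMIs against 0. Ly49- T cells gave 3.44 for *Apoe*, 5.04 for *Ccl12*, 3.76 for *Ccl8* and 5.14 for *Clec4a2*, so both kinds of T cells shared the direction for these genes. The perforin gene *Prf1* gave -2.93 (-8.24 to -0.44), which rests on 1 UMI in ZsG+ cells. For *Prf1* the Ly49- T cells gave -0.01 (-0.14 to 0.12).

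In the T cell sort 45 of 3449 genes were at least 2-fold higher with ZsG (1.3%) and 61 at least 2-fold lower (1.77%), together 3.07%. In Ly49+ T cells *Ccng1*, a target of p53, gave 2.02 (0.87 to 3.30), from 25 UMIs in ZsG+ and 9 in ZsG- cells, *Umps* 2.21 (0.83 to 3.82), from 19 and 6, and *Rpl36a-ps1*, a pseudogene whose reads may come from its parent gene, 2.42 (1.07 to 4.01), from 22 and 6. *Trim30d* gave -2.19 (-3.72 to -0.94), from 6 and 40 UMIs, *Irgm2*, an interferon-induced GTPase, -1.73, from 6 and 29, and *Myb* -1.72 (-2.81 to -0.77), from 11 and 53. These ratios too are in part set by the limit on cells with a UMI. Ly49- T cells, not chosen this way, gave -0.04 for *Ccng1*, 0.51 for *Umps* and 0.55 for *Rpl36a-ps1*. For *Trim30d*, *Irgm2* and *Myb* they gave -0.48, -1.08 and -0.05. None of these genes was among those named in the CD45 sort. All 6 directions depend on which T cell library was ZsG+.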

How the data were processed

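Tumor-infiltrating cells of 4 libraries (2 sorts, ZsG- and ZsG+) were profiled with the 10x 3′ v3.1 kit. The deposited matrices hold raw UMI counts per gene and cell. Per the labels and methods, the authors aligned reads to mm10 with Cell Ranger 6.1.2 and joined libraries with its aggr step, whereas the header of the CD45 matrix names version 7.0.0, a version that by default also counts intronic reads. Of the deposited columns, 0 were left unused.

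Cells were kept with 1000 to 5999 genes and under 10% mitochondrial UMIs (CD45 sort) or 50 to 5999 genes and under 15% (T cell sort), over 30406 genes shared by both matrices. No doublet caller was run. NK cells were cells with an *Ncr1* UMI and no CD3 UMI, macrophages those with 10 or more *C1qa*, *C1qb* and *Lyz2* UMIs and no CD3 UMI, and CD4+ T cells those with at least 3 CD3 UMIs and a *Cd4* UMI. Counts were summed per library and class, and CPM are sums over the class total. Sums were tested with edgeR 4.0.16 (R 4.3.3, TMM, filterByExpr, quasi-likelihood test, library as a block, Benjamini-Hochberg adjustment over all genes tested, threshold 0.05), with DESeq2 1.42.0 as an alternative. Genes of the rule stayed in the library sizes but out of the tested genes, and other Ly49 genes were described without reading a call. Intervals are 95% exact ones (binomial, or conditional on the summed counts) and cover counting error only, computed with scipy 1.17.1. Shares of cells with a UMI were also computed with each cell thinned to 2000 UMIs. The scripts were tested on simulated counts.

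Named genes were the 12 largest differences each way (6 by *Cd8a*, 5 by ZsG) among called genes with one direction in all libraries of the fit and a mean of at least 50 CPM in the higher class, beside gene lists of the receptor family, cell types and pathways. For ZsG, where nothing was called, a UMI in at least 20% of the Ly49+ T cells of 1 library was asked for. The members, lists and tests were chosen with earlier results of these data known. Promoters came from RefSeq (GRCm38.p6) and gene positions from the GRCm38 annotation. Some genes of the lists are not reported here.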

Additional observations from a re-analysis of the deposited data

Results flagged for a closer look

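For 13 genes the difference between Ly49+ and Ly49- T cells was itself not the same in cells with and without *Cd8a*, by the interaction term of the edgeR fit (adjusted p under 0.05 over 7320 genes, 3 libraries). Values below are log2 differences with *Cd8a* minus those without.

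The largest set of these held γ chain genes and genes that were also high in Ly49+ T cells as a whole. *Trgv2* gave 4.09 (adjusted p = 0.017), *Tcrg-C4* 4.22 (0.018) and *Tcrg-C2* 3.27 (0.049), *Ikzf2* 1.67 (0.0038), *Rbpms* 3.09 (0.028), *Pde2a* 3.14 (0.011) and *Irs2* 2.50 (0.017). *Gzmc* was the 1 gene below 0, at -5.80 (0.0029), and its range without each library in turn was -6.11 to -5.48. Under 3 other alternatives *Gzmc* kept its direction but was not called, with values from -5.55 to -2.57.

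*Tmem176b* gave 4.95 (0.017), *Arhgap31* 1.79 (0.026), *Ramp1* 2.39 (0.035), *Iigp1*, an interferon-induced GTPase, 2.47 (0.036) and *Serpinb1a* 5.95 (0.035). With *Cd8a* alone *Serpinb1a* gave 0.65 (edgeR adjusted p = 0.61). That side rests on 19 UMIs in 4 Ly49+ T cells, 12 of them in 1 cell, all in the CD45 ZsG- library. Without *Cd8a* it gave -5.10 (edgeR adjusted p = 1.7e-06), from 2, 0, 0 and 0 UMIs in Ly49+ and 57, 0, 4 and 14 in Ly49- T cells. Depth differed between the sides of the split, and its part in these differences was not tested beyond the range of 3000 to 10000 UMIs, where 4 genes were called.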

How the results depend on the processing

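Over the comparisons, 77 differences of named genes were followed under the alternatives, with some genes in more than 1 comparison. Of their values 1022 kept their direction and their side of the threshold, 160 kept the direction only and 0 changed direction. Most of the 77 were named for being called with one direction in every library of the fit, so the 0 is in part set by that choice. Among all genes called for Ly49+ against Ly49- T cells, 432 of 1617 had the other sign in cells without activation genes. In cells of 3000 to 10000 UMIs it was 230 of 1764. The number of genes called moved more than the named differences. Shares in brackets are of the genes tested in each setting, which differed in number. For Ly49+ against Ly49- T cells 2043 genes were called (22.6%), and 1228 with DESeq2 (13.6%). There were 603 in cells of 3000 to 10000 UMIs (7.83%) and 1038 (12.5%) with *Tyrobp*, *Klre1* and *Klrb1c* at 0. A mitochondrial limit of 5% gave 995 (11.7%). Cells without UMIs of *Pdcd1*, *Havcr2*, *Mki67* and *Top2a* gave 286 (4.24%). The T cell sort alone gave 1156 (13.8%) and the CD45 sort alone 2384 (28.1%). The single sorts and the setting on those UMIs were added after the data were seen. In the same order and without the single sorts, the 751 calls with *Cd8a* (8.72%) became 369 (4.28%), 387 (5.45%), 447 (5.75%), 237 (2.98%) and 101 (1.76%). They became 401 (4.75%) in cells with *Trac* and no γ or δ chain UMI (also added after the data were seen). The 222 calls without *Cd8a* (4.77%) became 92 with DESeq2 (1.98%) and 127 in the UMI range (2.79%). They became 107 with the mitochondrial limit (2.69%) and 146 in cells without activation genes (3.88%). Against the 13 interactions (0.178%), 6 were called with DESeq2 (3 of them among the 13), which gave an adjusted p to 2070 genes only. No filter gave 195 (1.25%) and a Ly49 sum of at least 3 gave 38 (0.57%). A sum of at least 1 gave 4 (0.066%), but it also brought the CD45 ZsG+ library into the fit. There were 4 in the UMI range (0.068%), 2 with the NK genes at 0 (0.044%) and 5 with the mitochondrial limit (0.089%). In cells with *Trac* and no γ or δ chain UMI 1 was called, and 9 of the 13 could be tested. The 110 calls between Ly49+ T cells with and without *Cd8a* (2.45%) became 22 with DESeq2, which gave an adjusted p to 1967 genes only. They became 175 with no filter (1.35%) and 20 with a sum of at least 3 (0.49%). A sum of at least 1, which here too brought CD45 ZsG+ into the fit, gave 377 (7.71%). There were 16 in the UMI range (0.446%), 3 with the NK genes at 0 (0.149%) and 10 in cells without activation genes (0.284%). The cause of these moves was not tested. The stricter NK and mitochondrial limits left under 10 Ly49+ T cells in CD45 ZsG+, which then dropped out, as it did for cells without *Cd8a* in the UMI range.

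Without each library in turn the calls ranged from 648 to 2251 for Ly49+ against Ly49- T cells, from 621 to 772 with *Cd8a*, from 129 to 192 without, from 1 to 95 for the interaction and from 0 to 157 within the Ly49+ T cells. Library was the block of each fit, and a pairing by replicate number does not apply, since each group holds 1 library. With no block, 822, 61, 63, 0 and 1 genes were called in these 5 comparisons. The 0 interactions with no block compare with 523 genes at an unadjusted p under 0.05 in edgeR and 6 called by DESeq2 with the block.

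With the T cell libraries assigned the other way round, the log2 ratio of the share, ZsG+ over ZsG-, was 0.54 in place of -0.54. Genes past 2-fold between the T cell gates numbered 106, and 569 with *Cd8a* cells only and 170 with a Ly49 sum of at least 3. With 1 library per sort and gate and 20 Ly49+ T cells in CD45 ZsG+, genes with few UMIs had wide intervals. The size of difference that could be detected between the gates was not tested.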

Other observations

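Ribosomal protein genes, mitochondrial genes and histone genes were read in the comparison of Ly49+ with Ly49- T cells as groups that no list held. Of 88 ribosomal protein genes 20 were higher, 3 lower and 65 not called (median log2 difference 0.22), and of 13 mitochondrial genes 10 were higher and 0 lower (0.41). Of 31 histone genes 0 were higher and 18 lower. The mitochondrial share of a cell is computed from the same mitochondrial genes, so it is no separate observation. Its median was 5.30%, 5.77%, 5.04% and 5.10% in Ly49+ and 4.65%, 4.21%, 4.27% and 4.10% in Ly49- T cells of CD45 ZsG-, CD45 ZsG+, T cell ZsG- and T cell ZsG+. The part of these groups of genes in the results was not tested.

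*Trgv2* gave 99 UMIs in the 559 Ly49+ T cells and 95 in the 1745 Ly49- T cells. Of the δ chain V genes, *Trdv4* gave 0 and 38 UMIs, *Trdv1* 6 and 11, *Trdv2-2* 3 and 5, *Trdv3* 0 and 1 and *Trdv5* 3 and 4. All of the δ chain V UMIs of Ly49+ T cells and all 38 of *Trdv4* were in CD45 ZsG- and were too few to compare.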
